A study of Mus musculus with 80 samples.

Results

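Hematopoietic stem cells (HSCs) of old mice were compared between the 25% with the highest and the 25% with the lowest level of CD150 protein on their surface, groups named G4 and G1. The comparison was chosen by its labels, as the 3 bulk RNA-seq libraries of G4 against the 3 of G1, 6 of the 24 bulk RNA-seq libraries and of the 80 samples in the series. It covered 11466 of 21825 gene symbols, those whose mean reached 1 FPKM in G1 or in G4. FPKM scale the fragments of a gene by transcript length and by the mapped fragments of the library. The cells were lineage-negative, Sca-1+, c-Kit+, CD48-, CD34- and CD150+ bone marrow cells of male C57BL/6 mice, which the methods text puts at 22 to 24 months of age and a supplementary list at a wider range. The labels give no difference in genotype and no treatment between the groups. Each of 3 numbered mice gave 1 library to G1, to G4 and to the middle groups G2 and G3, so the groups are parts of the same animals' HSCs, and G1 also consists of CD150+ cells.

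CD150 is the product of Slamf1 (chromosome 1, 171767127 to 171801184, plus strand, GRCm38), a self-ligand receptor of the SLAM family, and its surface level has long been used with CD48 to isolate HSCs. HSCs with much CD150 are known for myeloid and platelet output and become more frequent with age, while HSCs with little CD150 are known for more balanced or lymphoid output. Quiescence, the rest outside the cell cycle, is a hallmark of HSCs, and their entry into cycle is read from transcripts of DNA replication and mitosis.

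The transcript of the sorted protein followed the sort. Slamf1 was at 29.4, 29.2 and 15.2 FPKM in G1 of mice 1, 2 and 3 and at 102, 79.3 and 89 FPKM in G4. Every G4 library was above every G1 library, and the middle groups lay between them, at 51.6, 41.4 and 51.6 FPKM in G2 and 66.8, 62.8 and 67.9 FPKM in G3. The difference was 1.88 ± 0.23 (SE) on the log2(FPKM + 1) scale, with an adjusted p of 0.0143 in limma (a linear model for each gene with the mouse as a block, over the 12 libraries of G1 to G4, Benjamini-Hochberg adjusted over all genes tested). Where a gene is low, the added 1 FPKM makes such a difference smaller than the ratio of the FPKM themselves.

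Before the other results, 2 of the 12 libraries have to be named, because they stood apart from the rest. Pearson's r across genes was 0.967 to 0.98 between the other 10 libraries, 0.896 to 0.913 between these and G1 of mouse 3, and 0.93 to 0.943 between these and G2 of mouse 2. The libraries that stood apart were closer to each other (r = 0.958), although they came from different mice and groups. Their deviations from the other libraries ran against the GC content of the longest transcript of a gene (r = -0.356 and -0.279 across 11056 genes, against 0.065 to 0.212 in the rest), and the part this had in the results was not tested. Since G1 of mouse 3 is 1 of only 3 G1 libraries, results come from a fit of all 12 libraries and from a fit of the 10 others. For some genes below, the values of only 1 of these fits are given. The fit of the 10 was chosen after seeing the data.

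**Figure D1:**
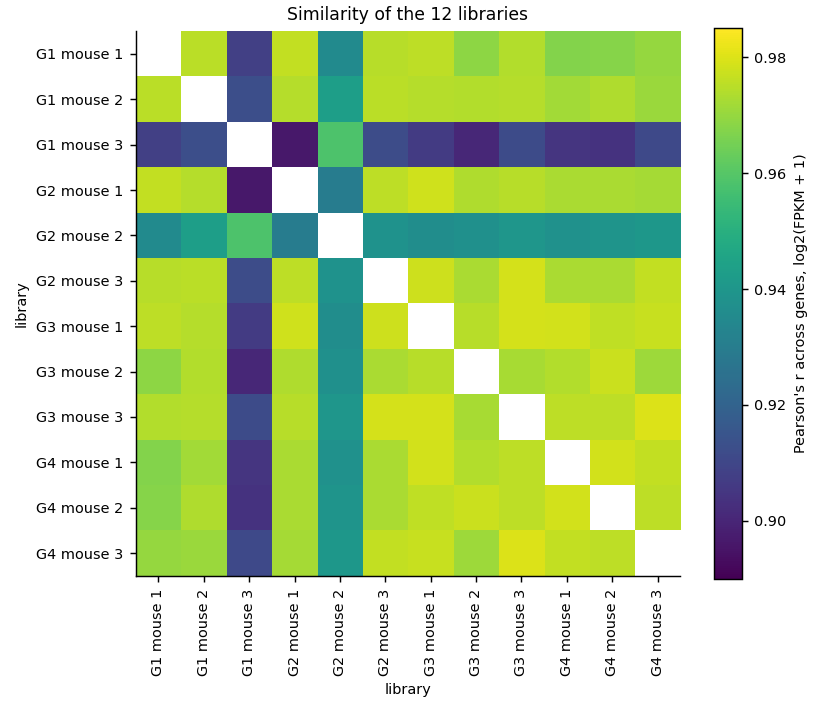
Similarity of the 12 libraries of G1 to G4. Each cell is Pearson's r across genes of log2(FPKM + 1) between the libraries of its row and column, with the diagonal left blank. The dark bands are G1 of mouse 3 and G2 of mouse 2, with r of 0.896 to 0.913 and 0.93 to 0.943 to the other 10 libraries.

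With all 12 libraries, 19 genes differed between G4 and G1 at an adjusted p under 0.05, which is 0.166% of the genes tested. Of these, 15 (0.131%) were higher and 4 (0.0349%) lower in G4, each by over 1 on the log2 scale, and each moved the same way in all 3 mice with no overlap between the G1 and the G4 libraries. Ranges did not overlap for 7.3% of all genes with G4 above and for 7.24% with G4 below, so non-overlap by itself marked many more genes than the test. With the 10 libraries the test called 183 genes (1.6%), 106 (0.924%) higher and 77 (0.671%) lower, and all 19 were among them. Of the 106 and the 77, 81 and 60 moved the same way in all 3 mice, as did 14.9% and 15.6% of all genes, and 71 and 48 did not overlap between groups. That fit used 5 of the 6 libraries counted here. Leaving out 1 mouse or 1 library changed the count as well: no gene passed in limma without mouse 1 (547 had an unadjusted p under 0.05), 1 without mouse 2, 5 without mouse 3, 2 to 5 without any one of the other G1 or G4 libraries, 23 without G1 of mouse 3 and 39 without G2 of mouse 2. When limma instead estimated a weight for each library, the libraries that stood apart received weights of 0.11 and 0.18 and each of the rest a weight over 1. This called 101 higher genes (0.881%) and 72 lower ones (0.628%), of which 84 and 56 were shared with the fit of 10 libraries.

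**Figure D2:**
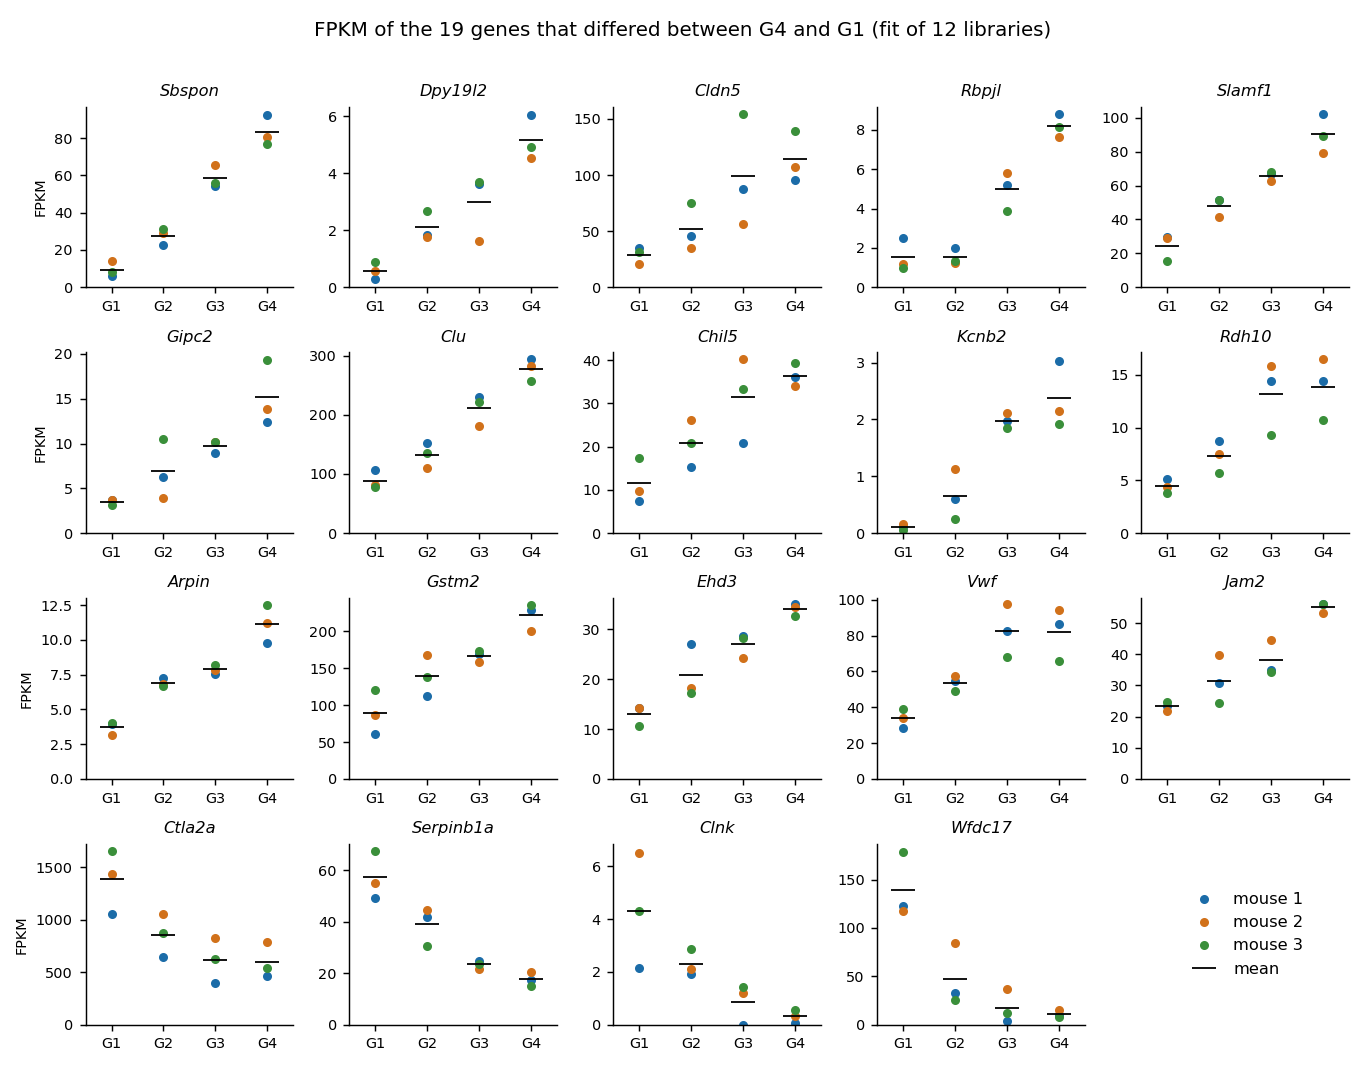
FPKM of the 19 genes called in the fit of all 12 libraries, in the CD150 groups G1 (lowest) to G4 (highest). Each panel is a gene with its own FPKM axis from 0, dots are libraries coloured by mouse, and bars are means of 3. In every panel the 3 G4 dots lie on the far side of the 3 G1 dots, as for Sbspon, at 5.77, 14.1 and 7.92 FPKM in G1 and 92.5, 80.5 and 76.8 FPKM in G4.

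The change of largest size among the higher genes was that of Sbspon, which encodes a secreted protein with somatomedin B and thrombospondin domains. Sbspon was at 5.77, 14.1 and 7.92 FPKM in G1 and at 92.5, 80.5 and 76.8 FPKM in G4, a mean 8.98 times as high, with G2 at 22.7, 29.4 and 31.1 FPKM and G3 at 54.2, 65.4 and 55.6 FPKM. Its difference was 3.11 ± 0.24 on the log2 scale (adjusted p = 0.00069 in limma). Clu, the secreted chaperone clusterin, was at 106, 80.6 and 77.2 FPKM in G1 and 295, 283 and 256 FPKM in G4, a difference of 1.66 ± 0.14 (adjusted p = 0.00104). Sbspon and Clu were called in each of the 6 fits that left out 1 library of G1 or G4, with log2 differences of 2.89 to 3.40 and 1.55 to 1.73. Neither was called without mouse 1 (adjusted p = 0.145 and 0.201) or from the 6 libraries of G1 and G4 alone (adjusted p = 0.0686 and 0.112), and Clu was not called without mouse 2 (adjusted p = 0.0826). The other 17 lost the call in at least 4 of these fits, and Slamf1, whose log2 difference ran from 1.56 to 2.11, was called in 2 of them, its largest adjusted p being 0.164.

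Of 33 adhesion genes tested, 3 were called higher and none lower with 12 libraries (0.131% and 0.0349% of all genes), and 6 higher and 1 lower, Cd34, with 10 (0.924% and 0.671%). Cldn5, the tight junction protein claudin-5, was at 35, 20.3 and 31 FPKM in G1 and 95.8, 107 and 139 FPKM in G4 (log2 difference 1.97 ± 0.23, adjusted p = 0.0143). Vwf, the platelet-binding von Willebrand factor, was at 28.6, 33.8 and 39.1 FPKM in G1 and 86.2, 94 and 65.9 FPKM in G4 (1.25 ± 0.18, adjusted p = 0.0339). Jam2, a junctional adhesion molecule, was at 23.4, 21.7 and 24.7 FPKM in G1 and at 56.3, 53.4 and 56 FPKM in G4, with the G4 libraries close together. All 3 genes were again called without the libraries that stood apart, with adjusted p of 0.000716, 2.75e-05 and 0.000849. In that fit Selp, the adhesion receptor P-selectin, Tm4sf1, a tetraspanin-like membrane protein, and Matn4, a matrix protein, also passed as higher. All 6 higher genes are in the study's list of genes higher in old HSCs. Jam2, Matn4 and Selp are also in its list of genes correlated with Slamf1 over these same libraries. The adhesion list was drawn up with earlier results known, so its share of calls is not independent evidence about adhesion genes. Selp stood at 50.1, 45.7 and 24 FPKM in G1 and 80.7, 76.3 and 83.3 FPKM in G4 (0.77 ± 0.12, adjusted p = 0.00705 with 10 libraries and 0.154 with 12).

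Gstm2, a glutathione transferase, was at 60.6, 86.3 and 121 FPKM in G1 and 229, 200.3 and 236 FPKM in G4 (log2 difference 1.36 ± 0.20, adjusted p = 0.0378). Rdh10, which oxidizes retinol on the way to retinoic acid, was at 5.16, 4.34 and 3.81 FPKM in G1 and 14.4, 16.5 and 10.7 FPKM in G4, and Chil5, a chitinase-like protein, at 7.42, 9.83 and 17.4 FPKM in G1 and 36.1, 34 and 39.3 FPKM in G4. The G1 library of mouse 3 was the highest of G1 for both Gstm2 and Chil5. Rdh10 and Chil5 differed by 1.44 ± 0.22 and 1.65 ± 0.26 on the log2 scale, both with an adjusted p of 0.0378. Rarb, the retinoic acid receptor beta, was at 10.2, 12.3 and 13.1 FPKM in G1 and 22.6, 27.3 and 30.8 FPKM in G4, and passed with 10 libraries (1.10 ± 0.17, adjusted p = 0.0073) but not with 12 (adjusted p = 0.192).

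Ehd3, which acts in endosome recycling, was at 14.2, 14.2 and 10.6 FPKM in G1 and 35, 34.4 and 32.7 FPKM in G4 (1.33 ± 0.20, adjusted p = 0.0355). Arpin, an inhibitor of the actin-nucleating Arp2/3 complex, was at 3.98, 3.16 and 4 FPKM in G1 and 9.75, 11.2 and 12.5 FPKM in G4 (1.36 ± 0.22, adjusted p = 0.048). Gipc2, a PDZ domain adaptor, was at 3.73, 3.73 and 3.1 FPKM in G1 and 12.4, 13.9 and 19.4 FPKM in G4 (1.82 ± 0.29, adjusted p = 0.0445). At a mean under 2 FPKM in G1 stood Rbpjl, a transcription factor known from the exocrine pancreas, Dpy19l2, known from sperm heads, and Kcnb2, a voltage-gated potassium channel. Kcnb2 was at 0.114, 0.154 and 0.0492 FPKM in G1 and 3.03, 2.15 and 1.92 FPKM in G4 (1.59 ± 0.26, adjusted p = 0.0445). It was the 1 called gene among 12 tested potassium channel genes and their accessory subunits, against 0.131% of all genes called higher. With a G1 mean under 1 FPKM, Kcnb2 entered the test only through G4, the group where it was high. Its call and this share are favoured by that filter and are a description. Rbpjl was at 2.51, 1.2 and 0.974 FPKM in G1 and 8.8, 7.65 and 8.13 FPKM in G4, and Dpy19l2 at 0.274, 0.588 and 0.872 FPKM and 6.06, 4.54 and 4.94 FPKM. Both passed in limma, with adjusted p of 0.0291 and 0.0316. Dpy19l2, below 1 FPKM in every G1 library, also entered the test only through G4. Rbpjl overlaps Matn4 on chromosome 2, and since the reads were counted without regard to strand, their values are not certain to be separate.

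In the other direction 4 genes passed. Wfdc17, a secreted protein of the WAP domain family, was at 123, 117 and 178 FPKM in G1 and at 10.4, 15 and 8.33 FPKM in G4, so that the G1 mean was 12.4 times the G4 mean (-3.53 ± 0.49 on the log2 scale, adjusted p = 0.0291). Serpinb1a, an inhibitor of neutrophil serine proteases, was at 49, 54.9 and 67.5 FPKM in G1 and 17.4, 20.4 and 14.9 FPKM in G4 (-1.64 ± 0.21, adjusted p = 0.0162). Ctla2a, an inhibitor of cysteine proteases and the most abundant of the 19 genes, was at 1056, 1439.8 and 1659.6 FPKM in G1 and 460.2, 784 and 541 FPKM in G4 (-1.23 ± 0.15, adjusted p = 0.0162). An annotated gene that overlaps it, Gm49391, was called as well with 10 libraries, so reads between them cannot be told apart. Clnk, an adaptor of immune receptor signalling, was at 2.14, 6.52 and 4.29 FPKM in G1 and 0.0698, 0.315 and 0.561 FPKM in G4 (-1.94 ± 0.30, adjusted p = 0.0378). Below 1 FPKM in every G4 library, Clnk entered the test only through G1, the group where it was high. Next in order of p, and not past the threshold with 12 libraries, were Pclaf, a partner of the replication clamp, at 18.7, 18.9 and 22.6 FPKM in G1 and 6.94, 7.85 and 10.3 FPKM in G4 (adjusted p = 0.0702), and Tff2, a secreted trefoil peptide, at 7.48, 9.09 and 40.3 FPKM and 2.16, 1.12 and 2.99 FPKM (adjusted p = 0.0887). Both passed in limma with 10 libraries (adjusted p = 0.0144 and 0.011).

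Many genes outside these 19 passed only without the libraries that stood apart. Nupr1, a stress-induced chromatin protein, was at 631, 617 and 1238 FPKM in G1 and 1095, 1221 and 981 FPKM in G4. Its G1 value in mouse 3 lay above all 3 G4 values, while those of mice 1 and 2 lay below them. The log2 difference was 0.48 ± 0.30 (adjusted p = 0.659) with 12 libraries and 0.86 ± 0.07 (adjusted p = 3.81e-05) with 10. Mllt3, which sustains human and mouse HSCs, was at 175, 194 and 286 FPKM in G1 and 387, 366 and 338 FPKM in G4, and passed with 10 libraries alone (0.98 ± 0.09, adjusted p = 0.000172, against 0.254 with 12). The library of G1 from mouse 3 acted the other way for Mycn, a MYC family transcription factor, at 60.6, 31.7 and 14.4 FPKM in G1 and 126, 104 and 101 FPKM in G4, where it was the lowest (adjusted p = 0.000215 with 10 libraries and 0.101 with 12).

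**Figure D3:**
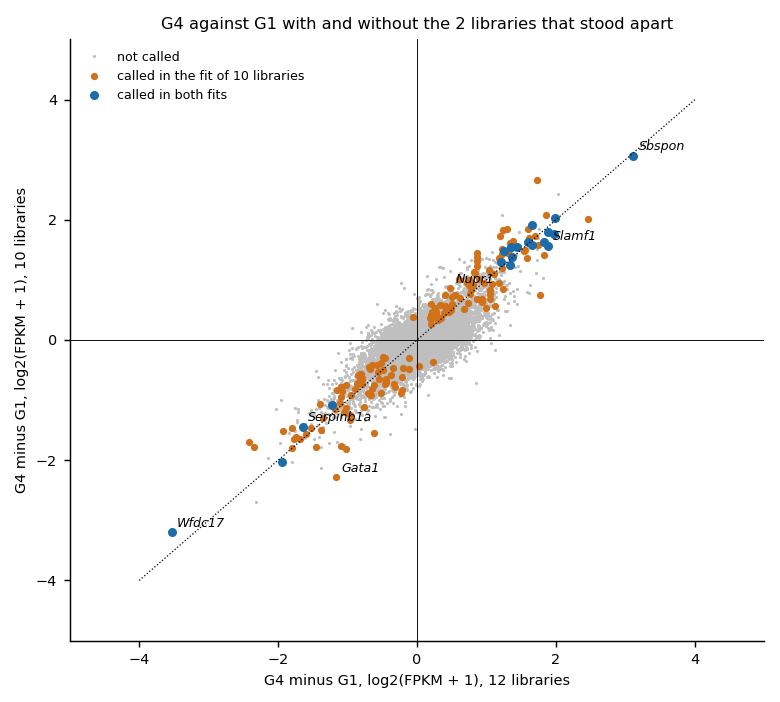
Log2(FPKM + 1) difference of G4 minus G1 for each gene tested in both fits, from 12 libraries (horizontal) and from 10 (vertical). Grey dots were not called, orange dots were called with 10 libraries and blue dots, 19 in all, in both. The dotted line marks equal values, and the blue dots lie near it.

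Transcripts of the cell cycle had mostly lower values in G4, although no member of these lists passed with all 12 libraries. Of 57 mitosis genes tested, 54 had a log2 difference below 0, with a median of -0.86, and of 52 DNA replication genes 49 did, with a median of -0.39, beside a median of 0.01 over all genes. With 10 libraries, 8 mitosis genes and 7 replication genes were called lower and none higher, against 0.671% of all genes called lower. The size differed between mice: the median of the mitosis genes was -1.86 in mouse 1, -0.34 in mouse 2 and -0.45 in mouse 3, while that of the replication genes was -0.34, -0.54 and -0.36. Summed over the mitosis list, G1 held 2780, 2039 and 3454 FPKM and G4 held 1359, 1449 and 1872 FPKM, without overlap.

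Among mitosis genes, Top2a, the DNA topoisomerase of dividing cells, was at 30.5, 14.6 and 32.7 FPKM in G1 and 7.24, 7.81 and 12.5 FPKM in G4 (-1.29 ± 0.26, adjusted p = 0.0296 with 10 libraries and 0.12 with 12). Cdk1, the kinase that drives entry into mitosis, was at 66.3, 43.4 and 43 FPKM in G1 and 27.9, 24.3 and 42.9 FPKM in G4 (-0.92 ± 0.18, adjusted p = 0.0221 and 0.369). Pbk and Ckap2l, a mitotic kinase and a spindle protein, were called with 10 libraries too, at adjusted p of 0.0254 and 0.0273. Kif15, a spindle motor, was not: it stood at 8.42, 5.64 and 5.97 FPKM in G1 and 1.99, 3.31 and 2.13 FPKM in G4 with no overlap, and had an adjusted p of 0.0804. Replication genes called with 10 libraries were Mcm3, a subunit of the replicative helicase, the nucleotide synthesis enzymes Rrm1, Tk1 and Tyms, the primase Prim1, the clamp loader Rfc2 and the histone mRNA binding protein Slbp. Prim1 was at 45.5, 36 and 53.8 FPKM in G1 and 27.4, 22.1 and 26.4 FPKM in G4 (-0.74 ± 0.16, adjusted p = 0.0372 with 10 libraries and 0.165 with 12), and Tyms at 96.9, 99.1 and 177 FPKM and 75.8, 57 and 72.7 FPKM (adjusted p = 0.0367 and 0.268). Pcna, the clamp itself, was at 145, 136 and 136 FPKM and 115, 113 and 101 FPKM, which did not pass in either fit (adjusted p = 0.194 and 0.594). Of histone genes, H2ac15, with near-identical copies that make its value uncertain, was at 136, 44.2 and 352 FPKM in G1 and 44.8, 15.1 and 77.4 FPKM in G4 (adjusted p = 0.000369 with 10 libraries and 0.482 with 12). The chromatin and cytoskeleton genes of dividing cells Hmgb2 and Stmn1, named after their values were seen, were at 187, 97.3 and 193 and 1189.6, 1115 and 1850.0 FPKM in G1 and at 62.8, 62.9 and 87 and 749, 742 and 803 FPKM in G4, and had adjusted p of 0.00721 and 0.000849 with 10 libraries. Stmn1 is 1 of the 8 mitosis genes already counted as called lower, and Hmgb2 is in neither list.

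The promoters of Cdk1 and Top2a are shown because genes of this kind are known to share CCAAT boxes and the cell cycle homology region. They are RefSeq sequences of GRCm38.p6, 300 bases around the start of the gene, on the minus strand at chr10:69352863-69353162 and chr11:99024140-99024439. Capitals mark CCAAT and TTTGAA on either strand, which do not overlap each other here, with 3 and 2 matches in Cdk1 and 6 and 2 in Top2a.
Cdk1: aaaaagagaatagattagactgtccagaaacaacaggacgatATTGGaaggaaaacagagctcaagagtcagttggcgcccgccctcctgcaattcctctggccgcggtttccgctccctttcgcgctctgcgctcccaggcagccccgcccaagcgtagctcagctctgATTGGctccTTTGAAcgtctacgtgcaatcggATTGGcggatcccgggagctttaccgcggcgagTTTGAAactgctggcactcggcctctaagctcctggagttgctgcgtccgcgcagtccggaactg
Top2a: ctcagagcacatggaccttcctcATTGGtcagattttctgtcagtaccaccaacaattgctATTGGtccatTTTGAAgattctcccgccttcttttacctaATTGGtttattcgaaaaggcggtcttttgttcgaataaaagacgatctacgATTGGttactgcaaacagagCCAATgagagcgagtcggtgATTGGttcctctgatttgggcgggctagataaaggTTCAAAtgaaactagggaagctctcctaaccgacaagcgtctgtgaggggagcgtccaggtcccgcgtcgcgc
Of the 15 replication and mitosis genes called lower with 10 libraries, 11 had a promoter in the table, and CCAAT was in 8 of them (72.7%) and TTTGAA in 3 (27.3%). In all 27025 promoters of this length the shares were 37.9% and 18.1%, and in the 9208 found for the genes tested 39.7% and 12.3%. For the 81 promoters of genes higher in G4 with 10 libraries they were 33.3% and 24.7%. For the 63 of all genes lower in that fit they were 44.4% and 25.4%, so the share with TTTGAA was similar in higher and lower genes. A match describes the letters and is not shown to be a bound site. The 15 genes come from lists of the kind known to share CCAAT boxes, and promoters of list members not called were not counted. Their share therefore cannot be tied to the difference between G4 and G1.

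Of 27 genes of a list of CDK inhibitors, cyclins and other regulators of growth and the cell cycle, none passed with 12 libraries. With 10, 3 were called higher, Mycn, Cited2 and Rb1, against 0.924% of all genes, and none of these is a CDK inhibitor or a cyclin. Mycn and Cited2 are also in the study's list of genes correlated with Slamf1, which was chosen on these same libraries. Rb1, the retinoblastoma protein that restrains E2F factors, was at 60.0, 52.8 and 81 FPKM in G1 and 125, 89.4 and 112 FPKM in G4 (0.91 ± 0.16, adjusted p = 0.011 with 10 libraries and 0.288 with 12). Lpar6, also called higher with 10 libraries, lies inside Rb1 on the other strand. Reads were counted without regard to strand, so the values of Rb1 and Lpar6 are not certain to be separate. Cited2, needed to keep HSCs, was at 138, 129 and 87.8 FPKM and 192, 186 and 181 FPKM. Cdkn1c, the p57 inhibitor of quiescent HSCs, stood at 58.2, 72.8 and 35.7 FPKM in G1 and 55.8, 59.7 and 59.7 FPKM in G4, with overlapping ranges and an adjusted p of 0.845.

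**Figure D4:**
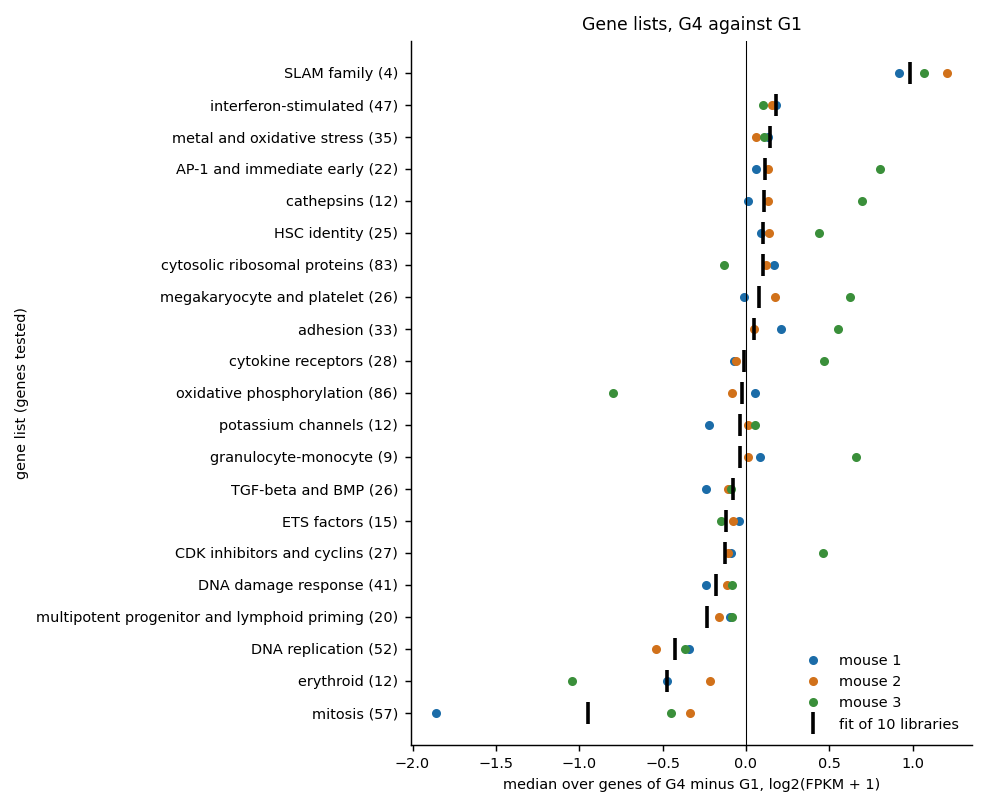
Median log2(FPKM + 1) difference of G4 minus G1 over the tested genes of each list, with the number of genes in brackets. Dots are the 3 mice and the black bar is the fit of 10 libraries. Mitosis, at -1.86, -0.34 and -0.45 in mice 1 to 3, and DNA replication lie below 0 in each mouse, and the mouse 3 dots of several other lists lie away from those of mice 1 and 2.

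The cells of both groups carried HSC transcripts. Over the 12 libraries Procr was at 82.9 to 200.8 FPKM, Hlf at 42.8 to 76.1 FPKM and Mecom at 52.2 to 113 FPKM, while Cd48 stayed below 1 FPKM, at up to 0.828. Of 25 HSC identity genes, 22 had a log2 difference above 0 with 12 libraries (median 0.29). Among them 1, Slamf1, passed, against 0.131% of all genes called higher. With 10 libraries the median was 0.1, and Slamf1, the transcript of the marker of the sort, Mllt3 and Pdzk1ip1 were called higher, against 0.924% of all genes. Procr, the endothelial protein C receptor of HSCs, was at 145, 139 and 82.9 FPKM in G1 and 201, 192 and 168 FPKM in G4, which did not pass (adjusted p = 0.0911 with 10 libraries and 0.359 with 12).

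In the list of multipotent progenitor and lymphoid priming genes, Cd34, whose protein was absent from the sorted cells by the gate, had transcripts at 63.6, 69.3 and 28.6 FPKM in G1 and 37.9, 24.8 and 26.4 FPKM in G4. It was lower in G4 with 10 libraries (-1.12 ± 0.18, adjusted p = 0.00838) and did not pass with 12 (adjusted p = 0.488), where the G1 library of mouse 3 held the lowest value of its group. Flt3, the receptor of lymphoid-primed progenitors, was at 2.19, 4.16 and 2.2 FPKM and 0.554, 1.06 and 1.59 FPKM without overlap (adjusted p = 0.131 with 10 libraries and 0.46 with 12). Cd52, a small surface glycoprotein of lymphoid cells, was at 2.54, 5.15 and 11 FPKM and 0.961, 1.28 and 1.82 FPKM (adjusted p = 0.127 and 0.154). Mef2c, a transcription factor of the same list, differed in direction, at 171, 182 and 281 FPKM in G1 and 257, 261 and 265 FPKM in G4 (0.58 ± 0.09, adjusted p = 0.00614 with 10 libraries and 0.637 with 12). Over the list, 13 of 18 genes were below 0 with 10 libraries (median -0.23). Mef2c was called higher and Cd34 lower, against 0.924% and 0.671% of all genes.

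Within the megakaryocyte and platelet list the members split. Of 26 tested genes Vwf passed with 12 libraries, against 0.131% of all genes called higher. With 10, Vwf, Selp and Fhl1, a LIM domain protein, were called higher, while Gata1, the erythroid and megakaryocyte transcription factor, and Plek, the platelet protein pleckstrin, were called lower, against 0.924% and 0.671% of all genes. Gata1 was at 5.86, 4.2 and 0.385 FPKM in G1 and 0, 0.00268 and 3.37 FPKM in G4 (-2.28 ± 0.45, adjusted p = 0.0254 with 10 libraries and 0.667 with 12), where G1 of mouse 3 and G4 of mouse 3 went against the others. An exact 0, as in G4 of mouse 1, can be a failed estimate. Pf4, platelet factor 4, was at 112, 249 and 178 FPKM in G1 and 87.6, 85.1 and 88.9 FPKM in G4 and Itga2b, the CD41 integrin, at 31.8, 19.4 and 12.8 FPKM and 19.4, 18.2 and 26.5 FPKM, and neither passed. Markers of mature megakaryocytes, 8 genes with Pf4 and Ppbp among them, summed to 225 to 345 FPKM in G1 and 173 to 197 FPKM in G4. Pf4 was a large part of these sums. Of the 7 markers tested, 4 had a log2 difference above 0 with 12 libraries (median 0.05) and 1 with 10 (median -0.31).

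Erythroid genes had mostly lower values in G4, without a call in the fit of 12 libraries. Of 12 tested, 10 had a log2 difference below 0 (median -0.72, and -0.47 with 10 libraries). Gata1 passed as lower with 10 libraries, against 0.671% of all genes. It is the same call as in the megakaryocyte and platelet list, with mouse 3 going the other way. The 8 erythroid markers, which include the globins, summed to 73.6, 134 and 177 FPKM in G1 and to 48.6, 36.1 and 45.6 FPKM in G4. Hbb-bt, a beta globin with a near-identical neighbour, was at 33.6, 83 and 75.7 FPKM and 22, 17.6 and 23 FPKM (adjusted p = 0.347). Markers of other cell types were detected at different levels: the 8 T and NK cell markers summed to at most 1.4 FPKM in any of the 12 libraries, with 3 of them at 0 in all G1 and G4 libraries, the 10 macrophage markers to 5.4 to 22.4 FPKM, the 8 B cell markers to 44.4 to 67.4 FPKM, and the 8 neutrophil markers to 6.72 to 100.0 FPKM. Between G1 and G4 the sums of the erythroid and of the megakaryocyte markers did not overlap. Sums of the macrophage, neutrophil, B cell, T and NK cell and endothelial markers overlapped between G1 and G4. The part of any other cell type in the results was not tested, and in bulk samples fewer cells of a type and less RNA per cell cannot be told apart.

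Of 12 SLAM family genes measured, 4 were tested, and 1, Slamf1, the transcript of the sorted marker, passed in both fits. Of all genes, 0.131% were called higher with 12 libraries and 0.924% with 10. Ly9 was at 0.812, 0.357 and 2.63 FPKM in G1 and 2.69, 2.7 and 2.11 FPKM in G4 (adjusted p = 0.0711 with 10 libraries and 0.583 with 12), and Cd84 at 57.8, 69.9 and 86 FPKM and 63.8, 68.3 and 72.4 FPKM (adjusted p = 0.895 and 0.936). Slamf8, at low values, was at 4.49, 2.95 and 0.0167 FPKM and 8.58, 6.9 and 4.23 FPKM (adjusted p = 0.279 and 0.363). Among the cytokine receptors, 28 tested with 12 libraries, none passed in either fit, and the list median was 0.13 with 12 libraries and -0.01 with 10.

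Metallothioneins, small proteins that bind zinc and copper, had more transcripts in G4 than in G1 in each of the 3 mice. Mt2 was at 59.5, 49.6 and 146 FPKM in G1 and 205, 122 and 226 FPKM in G4 of mice 1, 2 and 3, and Mt1 at 347, 369 and 803 FPKM and 693, 528 and 866 FPKM. Across mice the ranges overlapped, with mouse 3 the highest in both groups for either gene. With 10 libraries both were called (log2 differences 1.51 ± 0.14 and 0.76 ± 0.12, adjusted p = 0.000166 and 0.00851), and with 12 neither was (adjusted p = 0.0858 and 0.549). The genes lie next to each other on chromosome 8. Their RefSeq promoters (GRCm38.p6, plus strand, chr8:94178839-94179138 and chr8:94172368-94172667) are shown because both genes are known targets of the metal response element. Its core, TGCGCNC or TGCACNC on either strand, is in capitals, with 3 matches in Mt1 and 4 in Mt2.
Mt1: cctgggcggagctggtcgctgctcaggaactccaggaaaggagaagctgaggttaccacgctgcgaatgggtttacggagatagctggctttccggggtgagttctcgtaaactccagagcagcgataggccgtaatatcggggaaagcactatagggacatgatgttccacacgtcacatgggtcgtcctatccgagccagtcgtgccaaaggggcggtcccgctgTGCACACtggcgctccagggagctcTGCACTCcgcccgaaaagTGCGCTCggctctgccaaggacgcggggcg
Mt2: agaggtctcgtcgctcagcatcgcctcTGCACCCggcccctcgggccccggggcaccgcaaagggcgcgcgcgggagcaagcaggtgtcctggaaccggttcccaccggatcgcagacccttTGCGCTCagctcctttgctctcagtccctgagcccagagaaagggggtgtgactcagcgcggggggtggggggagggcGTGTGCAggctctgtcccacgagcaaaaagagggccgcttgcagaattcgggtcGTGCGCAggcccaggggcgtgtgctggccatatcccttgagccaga
Such a core was in 25.6% of all 27025 promoters and in 36.5% of the 9208 found for the genes tested. Of the 81 promoters found for the 106 genes higher with 10 libraries 28.4% held it, a smaller share than that of the genes tested. Of the 35 genes of metal and oxidative stress, Gstm2 passed with 12 libraries, against 0.131% of all genes called higher. With 10, Gstm2, Mt2, Mt1 and Ftl1, the light chain of the iron store ferritin, were called higher, and Gpx1 and Gclm, both of glutathione metabolism, lower, against 0.924% and 0.671% of all genes called higher and lower.

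Most interferon-stimulated genes had slightly higher values in G4. With 10 libraries 41 of 47 had a log2 difference above 0 (median 0.18, beside -0.03 over all genes, of which 5229 of 11471 were above 0) and 3 were called higher, Rtp4, Ifitm3 and Phf11d, against 0.924% of all genes, while with 12 libraries 35 of 47 were above 0 and none passed. Rtp4, a chaperone of receptors that interferon induces, was at 103, 134 and 155 FPKM in G1 and 463, 274 and 281 FPKM in G4 (1.52 ± 0.19, adjusted p = 0.00129 with 10 libraries and 0.119 with 12).

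Several lists gave few calls, or a median that moved with 1 library. Of 22 immediate early genes, among them Fos at 52.2, 42.5 and 29.1 FPKM in G1 and 49.5, 79.2 and 25.8 FPKM in G4, 19 were above 0 with 12 libraries (median 0.32) and 14 with 10 (median 0.12). Dusp1 was called lower in the latter fit, against 0.671% of all genes. Oxidative phosphorylation genes had a median of -0.25 with 12 libraries and -0.03 with 10, and their summed FPKM was 45830 in G1 of mouse 3 against 23090 to 33680 in the other 11 libraries. Cox7b2, at low values, was called higher with 10 libraries, the 1 called member of 86, against 0.924% of all genes. Of 83 cytosolic ribosomal protein genes and similar copies, 72 were above 0 with 10 libraries (median 0.1), and 3 were called higher, Rps7 and Rps27rt among them, against 0.924% of all genes. With 12 libraries 59 were above 0 (median 0.051) and none was called. Their medians were 0.169, 0.119 and -0.133 in mice 1 to 3. Cathepsins (12 tested), ETS factors (15), granulocyte and monocyte genes (9) and TGF-beta and BMP genes (26) had no member past the test in either fit. Of 41 DNA damage response genes H2ax, the histone variant marked at breaks, was called lower with 10 libraries, against 0.671% of all genes. Apart from the lists, chemokine genes Ccl3 and Ccl4, named after their values were seen, were lower in G4 with 10 libraries: Ccl4 was at 161, 205 and 314 FPKM in G1 and 102, 109 and 110.2 FPKM in G4 (adjusted p = 0.00705 with 10 libraries and 0.192 with 12). Genes named beside those the rule for named genes gives, such as Rarb, Pcna and Fos, were also chosen after their values were seen.

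Some of the called genes lie side by side. On chromosome 1 (GRCm38), Kcnb2 (15287254 to 15723750), Terf1 (15805646 to 15844052), Sbspon (15853862 to 15892722) and Rdh10 (16105774 to 16133734) were all higher in G4 with 10 libraries. Terf1, which encodes a telomere-binding protein, was at 55.2, 67.3 and 64.3 FPKM in G1 and 140.3, 110.2 and 116 FPKM in G4 (0.95 ± 0.17, adjusted p = 0.0123, and 0.119 with 12 libraries). Of the 7 genes tested in this stretch and 500000 bases on either side, these 4 were called and Rpl7, Stau2 and Ube2w were not. Rpl7 lies between Sbspon and Rdh10 and was at 752, 725 and 1068 FPKM in G1 and 832, 866 and 934 FPKM in G4. Other neighbours called higher were Clu and Gulo on chromosome 14, Rbpjl and Matn4 on chromosome 2, Cysltr2, Rb1 and Lpar6 on chromosome 14, and Gimap4, Gimap5 and Gimap6 on chromosome 6, and Wfdc17 was lower together with Ccl3 and Ccl4 on chromosome 11. Of 103 higher genes with a position, 30 (29.1%) had another higher gene within 500000 bases, as did 914 (8.21%) of 11129 genes that were not called. Called genes also lay near genes called the other way: 13.6% of higher genes had a lower gene within that distance, against 6.98% of genes not called, and 15.5% of lower genes had a higher one, against 8.21%. Pbk, called lower, lies within that distance of Clu and Gulo. By contrast, of 23 genes tested within 500000 bases of Slamf1 on either side, Slamf1 was the only one called. These shares are a description, since gene families lie in clusters and overlapping genes share reads.

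The middle groups, G2 and G3, were also measured. Of the 15 higher genes of the 12-library fit, 13 had means that rose at each step from G1 to G4, and the means of all 4 lower genes fell at each step, against 9.49% and 9.14% of all genes. With 10 libraries 78 of the 106 higher and 49 of the 77 lower genes did, against 6.15% and 7.24%. Genes chosen for a large difference between G4 and G1 are likely to have means in order, so these shares are a description and show nothing of the middle groups by themselves. Rbpjl and Vwf were the exceptions among the 15. Vwf reached 82.4, 97.4 and 68 FPKM in G3, about the level of G4, while Rbpjl stayed at 2.01, 1.23 and 1.35 FPKM in G2. Alcam, an adhesion molecule named by the study for aged HSCs, had its highest values in the middle, at 25.5, 46.7 and 35.4 FPKM in G2 and 25.2, 27.1 and 27.1 FPKM in G3, against 16.6, 15.6 and 24.6 FPKM in G1 and 20.3, 18.4 and 22.5 FPKM in G4.

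Age was compared in other libraries, 3 of old HSCs not divided by CD150 and 3 of young HSCs (2 to 3 months), which share no sample with G1 and G4. Of 11279 genes, 685 (6.07%) passed in limma, 364 (3.23%) higher and 321 (2.85%) lower in old HSCs. Of the 14 genes higher in G4 with 12 libraries that were also tested here, all 14 had a log2 difference above 0 (52.3% of the genes tested in both did) and 12 (85.7%) passed, and of the 104 with 10 libraries, 99 were above 0 and 66 (63.5%) passed. Of the 76 lower genes with 10 libraries, 68 were below 0 and 34 (44.7%) passed, while 2 (2.63%) passed in the opposite direction. Of the 4 lower genes with 12 libraries, 3 were below 0 and 1 passed. Sbspon was at 0.0496, 0.676 and 1.11 FPKM in young and 36.8, 52 and 53.7 FPKM in old HSCs, and Gpr183, an oxysterol receptor, at 0.656, 0.145 and 1.12 FPKM and 51.7, 42.7 and 39.2 FPKM, with 32.8, 34.2 and 47.1 FPKM in G1 and 81.4, 63.6 and 68.3 FPKM in G4. Mt2 was at 0.209, 0.572 and 2.43 FPKM in young and 83.5, 89.5 and 116 FPKM in old HSCs. Of the 66 genes that passed upwards in both, the G1 mean of mice 1 and 2 was above the young mean for 61, and the old mean lay between those of G1 and G4 for 52. These genes were chosen for being higher in G4 than in G1 and in old than in young HSCs. Undivided old HSCs also hold cells at every CD150 level. Both counts are favoured by this choice and are a description. Libraries of the 2 experiments were normalised separately, so levels across them are set side by side and were not tested. Wfdc17 did not share the direction, at 13.8, 13.7 and 31.8 FPKM in young and 38.8, 53.1 and 27.7 FPKM in old HSCs (log2 difference 1.04, adjusted p = 0.0732), and Plek, lower in G4, was higher in old HSCs (1.52, adjusted p = 0.0039).

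**Figure D5:**
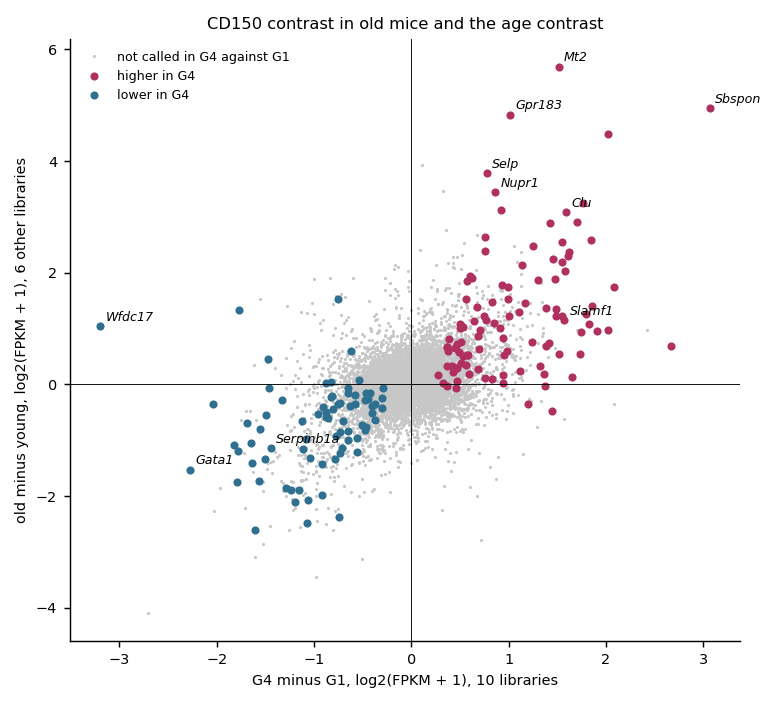
Log2(FPKM + 1) difference of G4 minus G1 from 10 libraries (horizontal) and of old minus young HSCs from 6 other libraries (vertical). Red dots are the genes higher and blue dots the genes lower in G4 that were tested in both, and grey dots were not called. Of the 104 red dots 99 lie above 0 on the age axis, and of the 76 blue dots 68 lie below it, with Wfdc17 among the exceptions.

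Among gene lists of the study, of its 273 tested genes higher in old HSCs, 14 were called higher in G4 and none lower with 12 libraries (median 0.48, beside 0.01 over all genes), and 49 higher and 1 lower of 270 with 10, while of all genes 0.131% were called higher with 12 libraries and 0.924% with 10. Of its 205 tested genes lower in old HSCs, none were called higher and 1 lower (median -0.67), and with 10 libraries 15 of 204 were lower, while of all genes 0.0349% and 0.671% were called lower. Of 93 public aging genes 8 were called higher (29 of 94 with 10 libraries, and Plek lower), and of 53 candidate marker genes 9 (28 with 10 libraries), to be read against the same 0.131% and 0.924% of all genes. The study drew the candidate markers from its genes higher in old HSCs, so their calls repeat calls of that list. Calls of public aging genes with 10 libraries, Plek included, also repeat calls of that list, apart from Trim47 and Casp12. The study took its list of genes higher in old HSCs from its bulk RNA-seq of young and old HSCs, so the list is not separate from the age comparison. The genes that the study correlated with Slamf1 were chosen on these same libraries and are not independent evidence of direction: 11 of 121 positive ones were called higher and 4 of 95 negative ones lower, and 39 and 18 with 10 libraries. Of genes that the study names, Enpp5, an ectonucleotide phosphodiesterase family member, was at 98.9, 93.3 and 79.2 FPKM in G1 and 171, 138 and 145 FPKM in G4 (adjusted p = 0.00992 with 10 libraries and 0.12 with 12), and Ramp2, a receptor activity modifying protein, at 25.7, 40.0 and 32.3 FPKM and 149, 107 and 62.4 FPKM (adjusted p = 0.0293 and 0.189). Nkg7, a granule protein of cytotoxic cells, was at 44.2, 84.7 and 151 FPKM in G1 and 23.9, 14.7 and 26.3 FPKM in G4 (adjusted p = 0.0254 and 0.101). Rnase6, Usp6nl, Lrr1, Cdc6, Cavin2 and Arhgap30 did not pass in either fit. Rnase6, a ribonuclease of myeloid cells, was at 18.7, 47.5 and 49 FPKM and 10.2, 6.34 and 13.9 FPKM without overlap (adjusted p = 0.0826 and 0.165), Usp6nl at 4.31, 4.45 and 15.7 FPKM and 1.6, 1.11 and 1.48 FPKM (adjusted p = 0.0702 and 0.283), and Arhgap30 at 6.32, 4.19 and 2.65 FPKM and 3.17, 3.62 and 4.57 FPKM. Haao was below the level of the test.

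After transplantation the contrast was looked up in donor cells recovered on day 4, 3 libraries from CD150high and 3 from CD150low old HSCs. No gene of 11077 passed in limma, while 826 had an unadjusted p under 0.05, and 9 passed without CD150low replicate 3. Slamf1 was at 14.2, 14.9 and 16.8 FPKM in cells from CD150low and 28.2, 26.9 and 33.3 FPKM in cells from CD150high HSCs, and Clu at 21.1, 8.3 and 9.98 FPKM and 79, 50.0 and 53 FPKM. Neither overlapped. Vwf was at 21.3, 19 and 15.6 FPKM and 45, 41.2 and 63.5 FPKM, and Sbspon was at low values, 0.157, 0.246 and 0.614 FPKM and 1.13, 3.77 and 2.51 FPKM. Of the 12 higher genes tested here 11 had a log2 difference above 0, as had 51.3% of all genes, and Cldn5 was the exception, at 2.64, 3.55 and 0.315 FPKM in cells from CD150low HSCs and 0, 0 and 3.2 FPKM in those from CD150high HSCs, 2 of them listed at 0. Of the 4 lower genes 3 were below 0, against 48.7% of all genes. From the 10-library fit, 84 of 95 higher genes were above 0 and 42 of 75 lower genes below 0. Top2a was at 68.4, 112 and 87.8 FPKM and 96.9, 92.2 and 99.4 FPKM, which, set beside its fresh levels without a test, is over 2 times its highest fresh value. The test of the difference between the day 4 and the fresh contrast called none of 11894 genes in limma, with 885 at an unadjusted p under 0.05. Without CD150low replicate 3 it called 26.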

How the data were processed

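The deposited tables hold FPKM per gene, which the authors made from full-length cDNA reads (SMART-Seq v4) trimmed with Trim Galore and aligned to mm10 with HISAT2 2.0.0. HTSeq 0.12.4, without strand, and DESeq2 1.22.2 are named for counting and testing, and Cufflinks, without a version or stated role, in the submitters' processing notes. FPKM carry no depth, so counting error is unknown. The FPKM of the 12 CD150 libraries summed to 549861 to 698603. Rows that repeat a symbol were summed.

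Log2(FPKM + 1) was tested with limma 3.58.1 (R 4.3.3, mean-variance trend) over 12 libraries, with the mouse as a block and Benjamini-Hochberg adjustment over all genes whose mean reached 1 FPKM in either group. The labels number the mice, and each mouse gave all 4 groups. Deviations from the group means correlated at 0 to 0.098 between G1 and G4 of the same mouse and at -0.136 to 0.046 between mice. Old and young HSCs, and day 4 cells, were fitted alike without a block. P-values of the fit with the mouse as a block cover the spread left within mice over G1 to G4. Those of fits without a block cover the spread between samples. In simulated data for 11466 genes, the test recovered 40% of changes of 1 and 88% of changes of 2 on the log2 scale, with 11 false calls. The simulated noise was independent between genes and equally large in all 12 libraries, and only genes at higher levels were changed. These rates therefore need not hold where libraries stand apart, as here, or for genes at low values. An exact 0 can be a failed estimate.

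The members and gene lists were chosen with earlier results of these data known. Named were Slamf1, up to 12 called genes in each direction by size of change (filled to 6 by unadjusted p where fewer passed), up to 4 members of each list by adjusted p, and genes the study names. Other genes were chosen after their values were seen. Alternatives were the block, the pseudocount, the filter, median-ratio scaling, the trend, library weights and leaving out libraries. Methylation, accessibility and single-cell data were not used here.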

Additional observations from a re-analysis of the deposited data

How the results depend on the processing

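The number of genes called between G4 and G1, 19 with all 12 libraries, depended on the libraries in the fit. It was 183 without both libraries that stood apart, 173 with library weights, 1 with the 6 libraries of G1 and G4 alone and 3 without a filter on low values. With median-ratio scaling it was 13, all 4 lower genes and 9 of the 15 higher ones, so that 6 calls ended. Leaving out 1 library, or 1 mouse, gave 0 to 39 genes, 0 without mouse 1 (547 at an unadjusted p under 0.05) and 39 without G2 of mouse 2. Requiring a fold change over 2 gave 79, 103, 1 and 2 genes in the same order, and 0 to 37. Without the replicate block, 15 genes were called with 12 libraries and 91 with 10 (50 over 2-fold), against 19 and 183 with the mouse as a block. For old against young HSCs, 685 genes became 102 without a filter, 703 with the replicate number as a block, and 375 to 663 when a library was left out. For the day 4 contrast, 0 became 2 without a filter, 3 with the replicate number as a block and 0 to 9 when a library was left out, 9 without CD150low replicate 3. For the difference of both contrasts, 0 became 1 with a pseudocount of 0.1, 3 without a filter and 0 to 26, the last without CD150low replicate 3. Beyond fewer samples or more genes tested, the cause of these changes was not tested. Of the named genes' values under the alternatives, 2063 kept their side of the threshold, 189 lost and 89 gained it. A further 46 changed sign with no call in either fit, and none changed sign with a call. Only 19 of the 121 named genes tested were called with all 12 libraries, and only these could lose a call. The 189 losses are therefore all theirs, and most of the 2063 values belong to genes not called with all 12 libraries. Of the list medians 595 moved by less than the spread between mice and 65 by more. That spread was the SD of the medians of the 3 mice, and mouse 3 includes the G1 library that stood apart. For oxidative phosphorylation these medians were 0.053, -0.083 and -0.796 in mice 1 to 3. The limit was thus wide where that library differed, and the 595 overstate how stable the medians were.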

Other observations

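The 2 libraries that stood apart lay outside the range of the other 10 in several summed lists. Oxidative phosphorylation genes summed to 45830 FPKM in G1 of mouse 3 and 33680 FPKM in G2 of mouse 2, against 23090 to 27930 FPKM in the rest. Interferon-stimulated genes summed to 25390 and 20660 FPKM, against 14050 to 17420 FPKM. B2m, a member of this list, was by itself at 14201.3 and 10713.2 FPKM, against 6265.8 to 8325.4 FPKM in the rest. Much of the difference between these sums is therefore that of 1 gene. The list median of G4 minus G1 was 0.179, 0.155 and 0.102 on the log2 scale in mice 1 to 3. Immediate early genes summed to 742.9 and 1036 FPKM in the 2 libraries, against 1206 to 1549 FPKM in the rest. These libraries came from different CD150 groups and different mice.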
